A study of Homo sapiens with 6 samples.

Results

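The MYC, MAX, MXD and MLX network was examined here as a group of 10 genes, taken by name from a table of 26485 genes. All 10 members (MYC, MAX, MXD1, MXI1, MXD3, MXD4, MNT, MLX, MLXIP and TXNIP) were listed, and all 10 passed the filter on low counts that left 12854 genes. The cells were THP1, a human acute monocytic leukemia line, exposed for 6 h to withaferin A (WFA), a plant steroidal lactone, or to its solvent DMSO. RNA was sequenced from 3 libraries with WFA and 3 with DMSO, which the methods describe as 3 independent experiments, and all 6 libraries come from the same cell line. The labels give the WFA dose as 1 mM, whereas the methods give 1 μM. The study asked whether loss of the c-MYB protein after WFA was reflected in gene expression, and it counts MYC among the c-MYB target genes.

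Library totals lay between 11006035 and 13872810 counts. Levels are given as CPM, the share of a library's counts after TMM scaling of library sizes, and where genes are compared with each other as CPM per kilobase of exon. All 12 monocytic marker genes examined, among them LYZ, CD68, CSF1R and SPI1, had more than 3 counts in every library, and their summed level was between 3090 and 3740 CPM with DMSO and between 2770 and 3660 CPM with WFA. Of these 12, 5 were lower with WFA (CD14, CD33, CSF1R, PTPRC and SPI1, from -1.22 to -0.34 on the log2 scale) and 1 was higher (CD68, 0.37), by the test described with the members. Of all tested genes, 24.7% were lower and 25.8% higher. With the replicate number as a block 6 of the markers were lower, and with upper-quartile scaling of library sizes 4 were. Among 12 markers of other cell types, CD3E, MS4A1, EPCAM, HBA1 and HBB had 3 counts or fewer in every library. The summed level of these 12 other markers was between 357 and 404 CPM with DMSO and between 320 and 338 CPM with WFA, and the part of either marker set in the results was not tested. In bulk RNA, fewer cells of a kind and less RNA per cell cannot be told apart.

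MYC is a basic helix-loop-helix leucine zipper factor that binds DNA only as a dimer with MAX and mostly activates genes for growth, ribosome production and metabolism. The MXD proteins (MXD1, MXI1, MXD3 and MXD4) and MNT compete for MAX, bind the same E-box sequences and recruit SIN3 corepressors, and MXD1 is known for its induction when myeloid cells stop dividing and mature. A parallel arm is built on MLX, which pairs with the glucose-responsive factor MondoA, encoded by MLXIP. A well-known gene under MondoA is TXNIP, whose protein is an alpha-arrestin that binds thioredoxin and restrains glucose uptake.

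With WFA, MYC fell 4.64-fold while its competitors MXD1 and MXD4 rose, and TXNIP fell. Of the 10 members, 2 were higher and 5 lower by edgeR's quasi-likelihood test (adjusted p-value below 0.05). Among all tested genes, 50.5% passed that threshold, 25.8% higher and 24.7% lower, so the number of called members is not in itself a result about the network. The sizes of the changes differed widely. MYC, MXD1, MXD4 and TXNIP changed over 2-fold, which is 4 of 10 members beside 13.3% of all tested genes. The libraries of the groups did not overlap for 8 members, beside 58.1% of all tested genes. The members were chosen with earlier results known, and these counts describe them without a test.

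**Figure D1:**
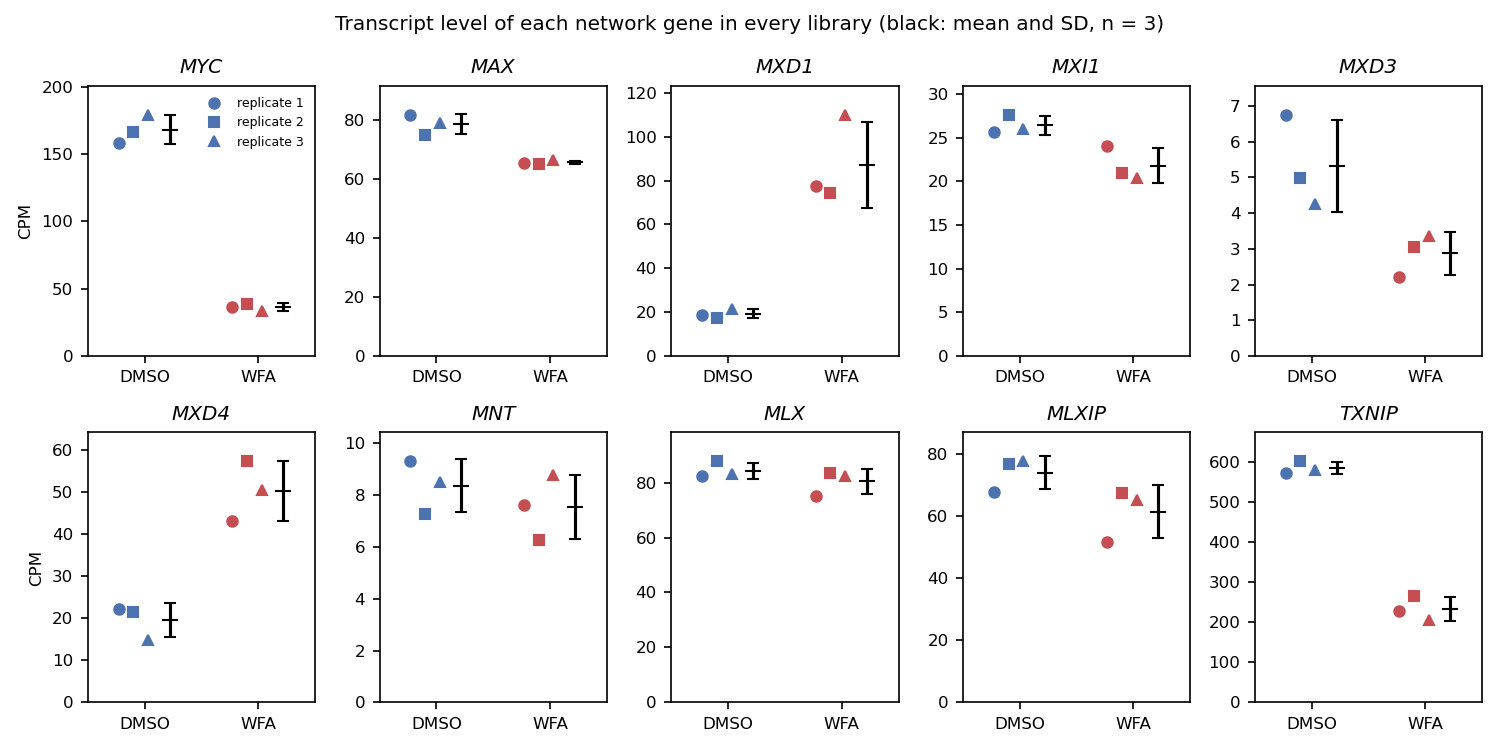
Level of each of the 10 genes (CPM, axes from 0) in the 3 DMSO libraries (blue) and the 3 WFA libraries (red), with symbols for replicate numbers and the mean and SD in black. The groups are far apart for MYC, MXD1, MXD4 and TXNIP, and overlap for MNT and MLX.

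MYC (GRCh38, chr8:127735434-127741434) had 158, 166 and 179 CPM in DMSO replicates 1, 2 and 3 and 36.3, 38.9 and 33.2 CPM in the WFA replicates. Every WFA library lay far below every DMSO library, and the libraries within a group were close together. The level was 4.64-fold lower with WFA, a log2 fold change of -2.21 ± 0.094 (SE, 95% interval -2.41 to -2.01, adjusted p = 2.49e-10). In the pairs of libraries with the same replicate number the log2 ratio was -2.12, -2.09 and -2.43. Only 55 of the 12854 tested genes had a lower log2 fold change than MYC, which ranked 56th from the bottom.

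The other MYC genes were looked at beside it. MYCL, a paralog that also dimerizes with MAX, had 43.8, 38.1 and 38.2 CPM with DMSO and 19.0, 22.1 and 13.1 CPM with WFA. It fell with a log2 fold change of -1.14 ± 0.15 (SE, adjusted p = 1.94e-05), lower in 3 of 3 pairs. MYCN had 0 counts in all 6 libraries, which allows a level of up to 0.211 to 0.279 CPM per library, so no change in it could be detected at this depth. These limits cover counting error only. The annotation and the handling of multiply mapped reads are not given, so a 0 need not mean that the transcript was absent.

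MAX, the shared partner (GRCh38, chr14:65006174-65102695), changed little. It had 81.7, 74.9 and 79.0 CPM with DMSO and 65.4, 65.1 and 66.3 CPM with WFA. The 3 WFA libraries were nearly equal and all lay below the DMSO libraries. The log2 fold change of -0.26 ± 0.083 (SE, adjusted p = 0.0172) corresponds to a 1.20-fold lower level. Without DMSO replicate 1 it was -0.23 and missed the threshold (adjusted p = 0.0754).

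**Figure D2:**
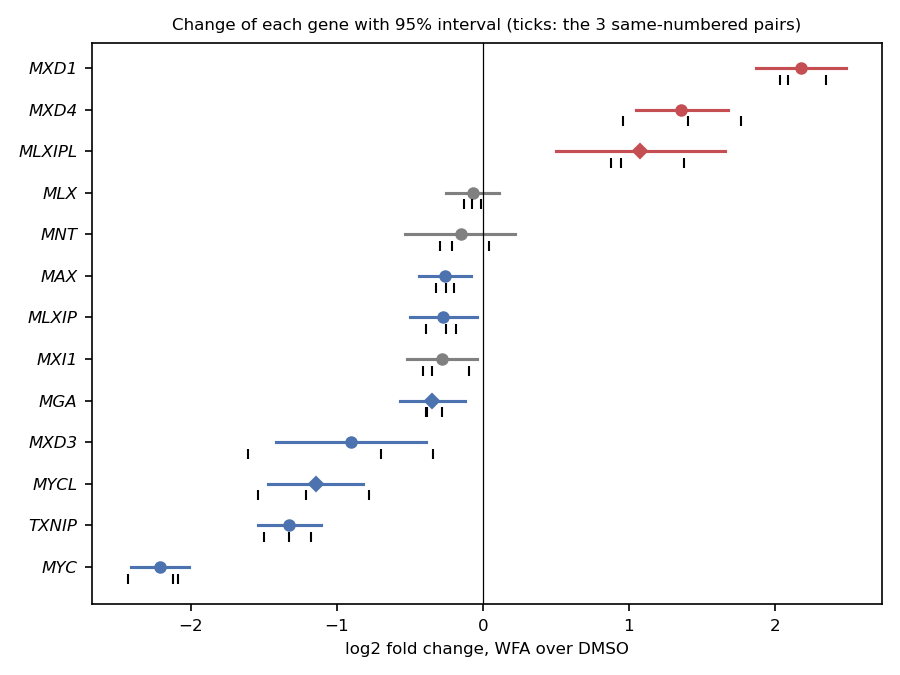
Log2 fold change of WFA over DMSO for the 10 members (circles) and for MYCL, MGA and MLXIPL (diamonds), with 95% intervals. Red and blue mark genes higher and lower at an adjusted p-value under 0.05, grey marks the others, and black ticks are the 3 same-numbered pairs. MXD1 at 2.18 and MYC at -2.21 stand at opposite ends.

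The MXD genes encode the repressors that compete with MYC for MAX, and they did not move together. MXD1 (GRCh38, chr2:69897688-69942945) had 18.9, 17.5 and 21.6 CPM with DMSO and 77.4, 74.4 and 110 CPM with WFA. All WFA libraries were above all DMSO libraries, and WFA replicate 3 was the highest. MXD1 rose 4.52-fold, a log2 fold change of 2.18 ± 0.15 (SE, 95% interval 1.87 to 2.49, adjusted p = 1.79e-08). It ranked 203rd from the top of the 12854 tested genes. With each library left out in turn, its log2 fold change stayed between 1.98 and 2.28.

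MXD4 (GRCh38, chr4:2247432-2262294) was the other member that rose. It had 22.1, 21.5 and 14.8 CPM with DMSO and 43.0, 57.2 and 50.4 CPM with WFA. DMSO replicate 3 was lower than the other DMSO libraries, and the groups did not overlap. The rise was 2.57-fold, a log2 fold change of 1.36 ± 0.15 (SE, 95% interval 1.05 to 1.68, adjusted p = 2.53e-06). The pairs gave 0.96, 1.41 and 1.77. With each library left out in turn, the log2 fold change was between 1.20 and 1.46. Whether MXD1 and MXD4 rose by different amounts was not tested.

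Neither of the other MXD genes rose. MXI1 (GRCh38, chr10:110207605-110287365) had 25.6, 27.6 and 26.0 CPM with DMSO and 24.0, 20.9 and 20.4 CPM with WFA. The groups did not overlap, but WFA replicate 1 was close to the DMSO libraries. Its log2 fold change of -0.28 ± 0.11 (SE) narrowly missed the threshold (adjusted p = 0.0534). With the replicate number as a block the value was again -0.28 and passed (adjusted p = 0.0234), as it did when WFA replicate 1 was left out (-0.36, adjusted p = 0.0269).

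MXD3 (GRCh38, chr5:177301461-177312757) was the member with the fewest reads, with 96, 63 and 51 counts in the DMSO libraries and 27, 38 and 36 in the WFA libraries. These correspond to 6.75, 4.98 and 4.25 CPM and to 2.21, 3.06 and 3.35 CPM. The groups did not overlap, and DMSO replicate 1 was the highest. MXD3 fell with a log2 fold change of -0.90 ± 0.24 (SE, adjusted p = 0.00599), and the pairs spread from -1.61 to -0.34. Of its exon sequence, 35.2% is shared with PRELID1 on the opposite strand, which had 954 to 1930 counts and fell with a log2 fold change of -0.50 ± 0.084 (SE, adjusted p = 0.000158). How the counting handled strand is not given in the sources used here, so reads from the shared stretch cannot be told apart.

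MNT encodes a broadly present repressor of the same group (GRCh38, chr17:2384060-2401118). It had 9.29, 7.27 and 8.50 CPM with DMSO and 7.60, 6.28 and 8.75 CPM with WFA, and the groups overlapped. A change was not detectable, with a log2 fold change of -0.15 and a 95% interval from -0.53 to 0.22 (adjusted p = 0.49). Of its exon sequence, 21.3% is shared with an antisense gene, AC006435.1. MGA, a very large protein that also pairs with MAX and is no member of the group, had 156 to 197 CPM with DMSO and 120 to 150 CPM with WFA. The difference on the log2 scale was -0.35 ± 0.11 (SE, adjusted p = 0.0125). The call was lost when DMSO replicate 3 (-0.25, adjusted p = 0.0672) or WFA replicate 2 (-0.26, adjusted p = 0.0628) was left out.

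Because these proteins share MAX, their transcripts were also set beside each other on the scale of CPM per kilobase of exon. The sum ran over 9 genes, the activators MYC, MYCL and MYCN and the antagonists MXD1, MXI1, MXD3, MXD4, MNT and MGA. MYC made up 57.4%, 60.5% and 61.4% of it in the DMSO libraries and 21.0%, 21.6% and 17.5% in the WFA libraries. The mean went from 59.7% ± 2.10 to 20.0% ± 2.24 (SD, n = 3 each). With counts not corrected for length the means were 36.4% ± 1.56 and 10.1% ± 1.43 (SD, n = 3 each).

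MXD1 accounted for 3.67% ± 0.276 of the sum with DMSO and 25.6% ± 4.64 with WFA, and MXD4 for 5.16% ± 1.22 and 20.5% ± 2.67 (SD, n = 3 each). The summed level of the activators was 64.0 ± 3.12 CPM per kilobase with DMSO and 15.7 ± 1.87 with WFA, and that of the antagonists was 29.5 ± 0.938 and 44.7 ± 4.37 (SD, n = 3 each). Activators thus exceeded antagonists by a ratio between 2.03 and 2.26 in the DMSO libraries, and stood at a ratio between 0.276 and 0.409 in the WFA libraries. In the ratio of MYC to MXD1 alone the change was from between 15.6 and 17.8 to between 0.566 and 0.978. The whole sum went from 93.6 ± 3.31 to 60.4 ± 2.88, so the rise of the antagonists did not make up for the fall of MYC on this scale. These ratios rest on lengths from all exons joined, 3001 bases for MYC and 5617 for MXD1. The longest transcripts have 2366 and 5587 bases, which would raise MYC beside MXD1 and put it above MXD1 in WFA replicates 1 and 2. Without length correction MGA weighs more among the antagonists, with a mean of 174 CPM with DMSO beside 168 for MYC and 40.0 for MYCL. On that scale the activators lay below the antagonists in every DMSO library as well. The ratios themselves were not computed for either choice. They are ratios of transcripts, and the amounts of protein were not measured.

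**Figure D3:**
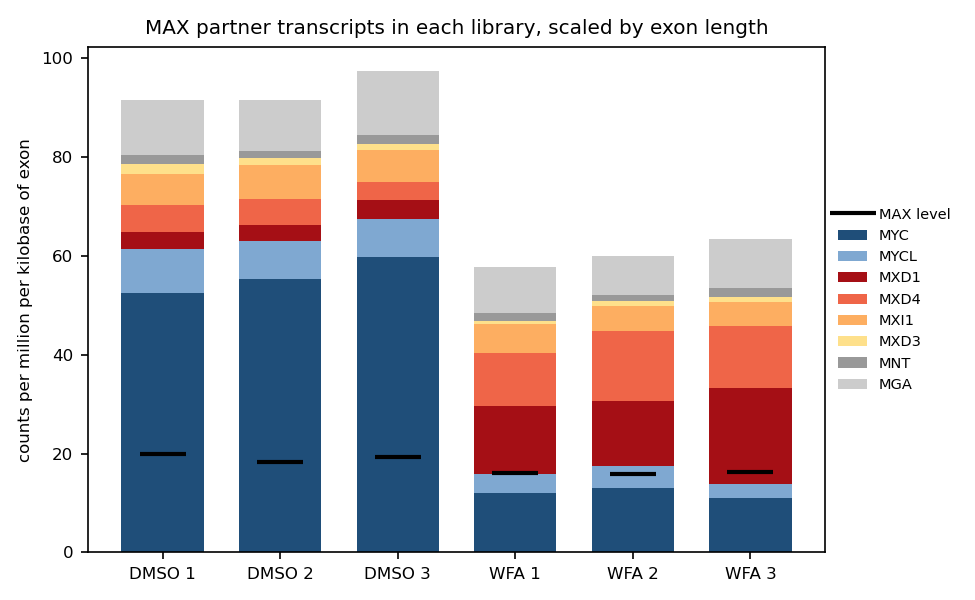
Transcript level of the MAX partners in each library, stacked, in CPM per kilobase of exon, with MAX itself as a black line. MYC (dark blue) is the largest part of each DMSO bar, while MXD1 and MXD4 (dark and light red) together exceed it in each WFA bar. MYCN, at 0 counts, has no segment.

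The order of the 10 transcripts on that scale was, with DMSO, TXNIP at 182, MYC at 55.9, MLX at 32.6, MAX at 19.1, MLXIP at 7.85, MXI1 at 6.52, MXD4 at 4.80, MXD1 at 3.44, MNT at 1.67 and MXD3 at 1.62 CPM per kilobase. Among neighbours in this order, the ranges over libraries overlapped between MXD4 and MXD1, at 3.66 to 5.45 and 3.11 to 3.84 CPM per kilobase, and between MNT and MXD3. With WFA the order became TXNIP at 72.5, MLX at 31.0, MAX at 16.0, MXD1 at 15.5, MXD4 at 12.4, MYC at 12.0, MLXIP at 6.51, MXI1 at 5.37, MNT at 1.51 and MXD3 at 0.872. There the ranges overlapped between MAX and MXD1, MXD1 and MXD4, MXD4 and MYC, and MLXIP and MXI1. With lengths from all exons joined, MYC, at 11.1 to 13.0, lay below MXD1, at 13.2 to 19.6, in every WFA library. With the longest transcripts as lengths, 2366 bases for MYC and 5587 for MXD1, that order did not hold throughout. MYC then lay above MXD1 in WFA replicates 1 and 2 and below it in replicate 3. Lengths came from GENCODE 29, which may not be the annotation that was counted.

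**Figure D4:**
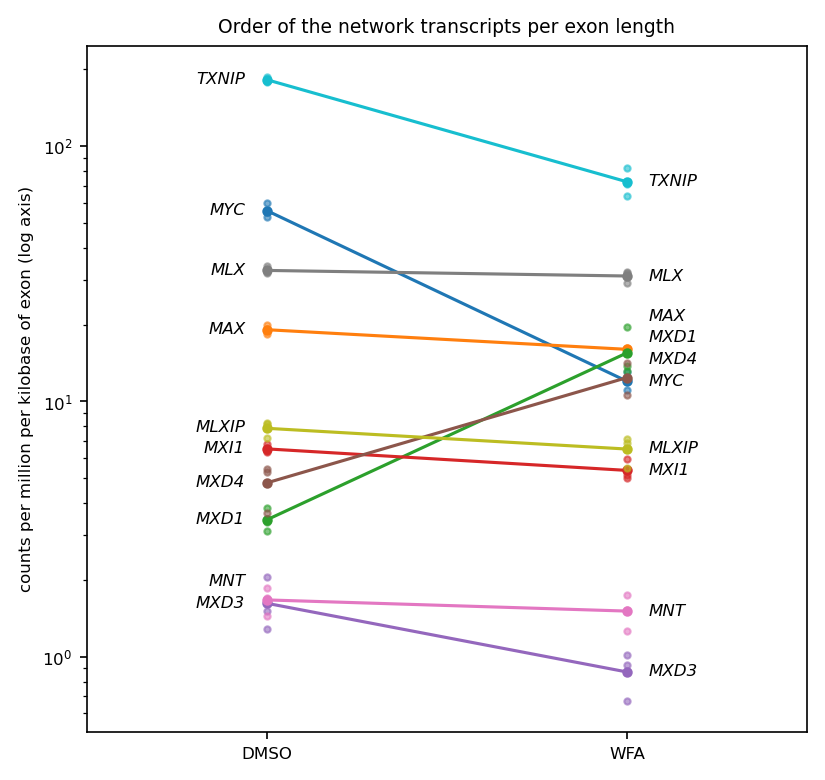
Mean level of each gene in CPM per kilobase of exon (log axis) with DMSO and with WFA, joined by a line, with small points for single libraries. With lengths from all exons joined, MYC drops from the second place to the level of MXD4, and MXD1 climbs to that of MAX.

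The parallel arm was described next, beginning with the shared partner MLX. MLX (GRCh38, chr17:42567068-42573239) had 82.3, 87.7 and 83.0 CPM with DMSO and 75.2, 83.5 and 82.4 CPM with WFA. The groups overlapped, and a change was not detectable, with a log2 fold change of -0.07 and a 95% interval from -0.25 to 0.11 (adjusted p = 0.518). Of its exon sequence, 29.7% is shared with PSMC3IP on the opposite strand, which had 225 to 324 counts and rose with 0.38 ± 0.13 on the log2 scale (SE, adjusted p = 0.0232), so reads from the shared stretch cannot be told apart here either.

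MLXIP, which encodes MondoA (GRCh38, chr12:122078722-122147347), had 67.7, 76.6 and 77.5 CPM with DMSO and 51.5, 67.4 and 65.0 CPM with WFA. The groups were separated by a narrow gap, since WFA replicate 2 reached nearly the lowest DMSO library. The log2 fold change of -0.27 ± 0.11 (SE) passed the threshold by little (adjusted p = 0.0478). Without WFA replicate 1 it was -0.16 (adjusted p = 0.204), without DMSO replicate 2 it was -0.26 (adjusted p = 0.109), and without DMSO replicate 3 it was -0.24 (adjusted p = 0.135). The related MLXIPL, which encodes the carbohydrate response factor ChREBP, was rare, with 18 to 21 counts in the DMSO libraries and 30 to 42 in the WFA libraries. It rose with a log2 fold change of 1.08 ± 0.27 (SE, adjusted p = 0.00373), higher in 3 of 3 pairs.

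TXNIP (GRCh38, chr1:145992435-145996600) was the most abundant member per kilobase of exon and fell. It had 573, 601 and 580 CPM with DMSO and 228, 265 and 206 CPM with WFA. Each WFA library was below each DMSO library, with little spread in either group. The level was 2.51-fold lower, a log2 fold change of -1.33 ± 0.10 (SE, 95% interval -1.54 to -1.11, adjusted p = 6.44e-08). The pairs gave -1.33, -1.18 and -1.50, and TXNIP ranked 325th from the bottom of the tested genes.

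The promoters of TXNIP and MXD4 are shown because both genes changed over 2-fold, in opposite directions, and both windows hold a match to the sequences that this family binds. For TXNIP the table holds a pair of windows, and the one with the match is shown. Each is 300 bases of RefSeq sequence on the minus strand of GRCh38.p14, from 250 bases before to 50 after the RefSeq start of the gene. TXNIP is at chr1:145996530-145996829 and MXD4 at chr4:2262060-2262359. The GENCODE spans given above begin elsewhere, and both GENCODE starts, 145996600 for TXNIP and 2262294 for MXD4, lie within the windows. Capitals mark a CACGTG E-box or a pair of CACGNG motifs set 5 bases apart, the arrangement of a carbohydrate response element.
TXNIP: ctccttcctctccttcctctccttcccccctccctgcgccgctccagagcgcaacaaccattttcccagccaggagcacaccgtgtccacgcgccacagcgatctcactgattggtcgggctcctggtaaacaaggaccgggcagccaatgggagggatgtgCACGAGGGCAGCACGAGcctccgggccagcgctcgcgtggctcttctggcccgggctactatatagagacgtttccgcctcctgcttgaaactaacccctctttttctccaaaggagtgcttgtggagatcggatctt
MXD4: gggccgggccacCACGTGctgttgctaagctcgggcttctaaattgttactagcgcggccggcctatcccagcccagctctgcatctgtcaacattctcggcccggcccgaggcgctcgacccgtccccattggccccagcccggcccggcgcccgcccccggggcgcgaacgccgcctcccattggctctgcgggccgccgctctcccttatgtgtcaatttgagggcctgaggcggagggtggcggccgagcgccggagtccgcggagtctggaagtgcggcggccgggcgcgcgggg

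Promoter windows were listed for 9 of the 10 members, and both strands were searched. MYC had no window, so its promoter was not searched. All distances are from the RefSeq start. The paired motif began 88 bases before the start in TXNIP and was found in 20 of 35116 windows of this length (0.057%), and in no other window of the members. CACGTG was found in 7.26% of all windows. Among the members it was present in MXD4, 238 bases before the start, in MNT, 193 bases before, and in MLX, 50 bases before. Of these genes MXD4 rose, and for MNT and MLX a change was not detectable. The heat shock motif GAANNTTC, found in 6.77% of all windows, was in none of the members' windows. A match describes letters only, and binding was not measured.

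Genes that respond to MondoA and its relatives were set beside TXNIP. The list held 6 such genes, and 5 passed the filter, with 2 higher and 1 lower, beside 25.8% and 24.7% of all tested genes, and a median log2 fold change of 0.23, beside 0.022. With total counts 1 was higher and 2 lower, and with the replicate block 3 were higher and 1 lower. Of all genes, total counts called 2763 higher and 3875 lower, and the replicate block 3877 and 3708. ARRDC4, a close relative of TXNIP, went from 33.0 ± 0.765 to 78.5 ± 11.9 CPM (SD, n = 3 each). It rose with a log2 fold change of 1.25 ± 0.11 (SE, adjusted p = 3.57e-07), opposite to TXNIP. HK2, a hexokinase, fell with -2.35 ± 0.16 (SE, adjusted p = 1.82e-08). HK2 is also on the list of MYC-activated genes with other roles, so these lists share a gene. KLF10, a zinc-finger factor, rose with 0.33 ± 0.10 (SE, adjusted p = 0.0118). The KLF10 value lost its call without DMSO replicate 2 (0.27, adjusted p = 0.064) and without WFA replicate 1 (0.23, adjusted p = 0.0611).

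The 5 ARRDC genes encode the other alpha-arrestins, and of the 4 that passed the filter 1 was higher (ARRDC4) and 1 lower, which is close to the shares of 25.8% and 24.7% among all tested genes. With the replicate block, which called more of all genes (3877 higher and 3708 lower), 2 were higher and 1 lower. The lower one was ARRDC1, at -0.45 (standard error 0.18, adjusted p = 0.0454), whose groups overlapped. It missed the threshold when DMSO replicate 1, DMSO replicate 2, WFA replicate 1 or WFA replicate 3 was left out, with adjusted p-values of 0.116, 0.134, 0.195 and 0.15 and values from -0.41 to -0.30. Without WFA replicate 2 it was -0.71 (adjusted p = 0.00168), and without DMSO replicate 3 it was -0.57 (adjusted p = 0.0217). The proteins around thioredoxin, which TXNIP binds, were examined too. TXN rose with a log2 fold change of 0.36 ± 0.088 (SE, adjusted p = 0.00307). TXNRD1, which keeps thioredoxin reduced, went from 248 ± 13.2 to 860 ± 17.9 CPM (SD over 3 libraries in each group), which gave on the log2 scale a fold change of 1.79 ± 0.089 (SE, adjusted p = 9.82e-10). For mitochondrial TXN2, the remaining gene of 3, the value was -0.056 (adjusted p = 0.649).

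Genes that MYC is known to activate were then counted on lists written from general knowledge, which are no independent test since earlier results of these libraries were known. Of 33 nucleolar and ribosome assembly genes, 32 were lower and 0 higher, beside 24.7% lower among all tested genes, and the median log2 fold change was -1.31. By unadjusted p-values under 0.05, 33 were lower and 0 higher in edgeR, and DESeq2 called 33 lower and 0 higher. The smallest p-values belonged to RRS1 (-2.52, standard error 0.12), NOP16 (-2.57, standard error 0.12) and POLR1B (-1.97, standard error 0.11), with adjusted p-values of 6.81e-10, 7.92e-10 and 4.37e-09. RRS1 and NOP16 act in assembly of the large ribosomal subunit, and POLR1B is a core subunit of RNA polymerase I. The gene not called, FBL, named here after its value was seen, had -0.20 (adjusted p = 0.0525), or -0.20 with the replicate block (adjusted p = 0.022).

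Of 41 MYC-activated genes with other roles, 39 passed the filter, with 29 lower and 5 higher, beside 24.7% and 25.8% of all tested genes, and a median of -0.66. PPRC1, a coactivator for mitochondrial genes, went from 41.9 ± 3.22 to 11.7 ± 1.13 CPM (SD over 3 libraries in each group), which gave on the log2 scale a fold change of -1.83 ± 0.12 (SE, adjusted p = 1.59e-08). HSPE1 and HSPD1, which encode the mitochondrial chaperonins and are also heat shock genes, went against the list. Their log2 fold changes were 1.92 (standard error 0.10, adjusted p = 1.08e-09) and 1.93 (standard error 0.11, adjusted p = 2.89e-09). The other genes that rose, named after their values were seen, were MCM5 at 0.39, PRMT3 at 0.69 and TMEM97 at 0.85. EIF4A1 was listed at 0 in all 6 libraries and was not tested, and whether this 0 comes from the way reads were counted is not known.

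Genes that MYC is known to repress were counted in the same way. Of the 10 listed, 7 passed the filter, with 4 higher and 0 lower (0 lower at an unadjusted p-value under 0.05 in edgeR, and 0 in DESeq2), with a median log2 fold change of 0.37, beside 25.8% higher among all tested genes. CDKN1A, the cyclin-dependent kinase inhibitor p21, went from 20.1 ± 4.42 to 80.6 ± 24.1 CPM (SD over 3 libraries in each group), which gave on the log2 scale a fold change of 2.01 ± 0.19 (SE, adjusted p = 5.99e-07). FTH1, the ferritin heavy chain, rose with 2.04 ± 0.17 (SE, adjusted p = 1.42e-07), and THBS1, a matrix glycoprotein, with 2.93 (standard error 0.24, adjusted p = 1.80e-07). FTH1 is also known as a gene of the oxidative stress response. These genes answer to many regulators, and which part of their change goes with MYC was not tested.

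**Figure D5:**
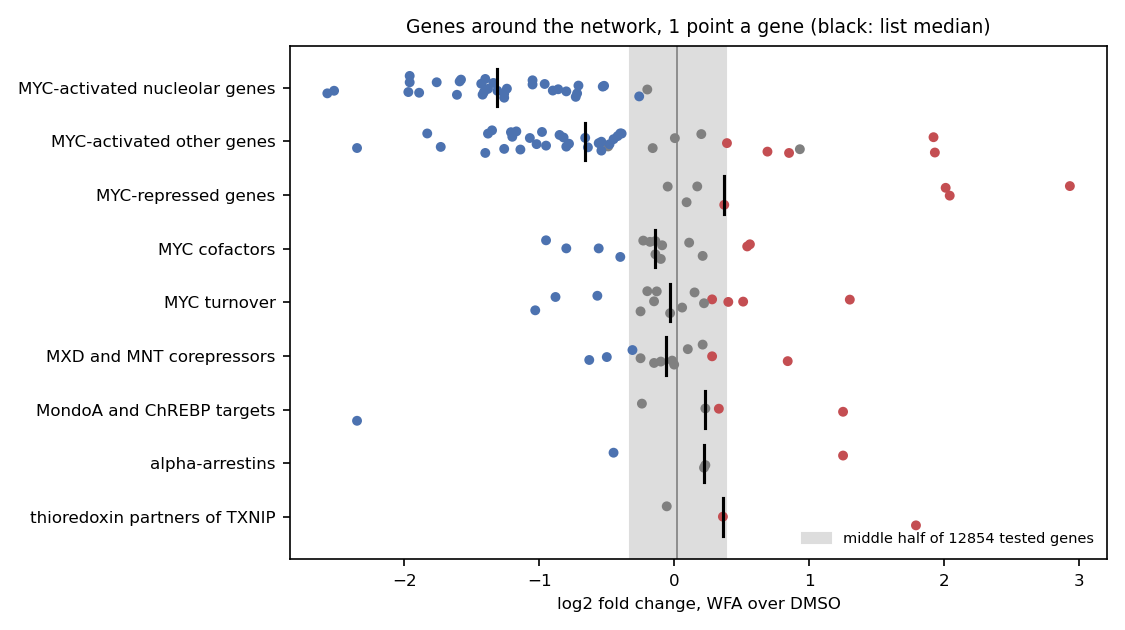
Log2 fold change of WFA over DMSO for the genes of 9 lists around the network, 1 point a gene, coloured red or blue where called higher or lower and grey otherwise, with list medians in black. The grey band is the middle of all 12854 tested genes, from -0.33 to 0.38. The 2 lists of MYC-activated genes have medians of -1.31 and -0.66, left of the band.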

How the data were processed

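RNA-seq counts of 3 DMSO and 3 WFA libraries of THP1 cells were used. The deposited counts are whole numbers per gene symbol, summed by the authors from their reads and not normalized. The submitters' processing notes list bcl2fastq 2.19, Trimmomatic, Bowtie2, Picard, featureCounts and DESeq2 with the build hg38, but the annotation and the handling of strand and of multiply mapped reads are not given in the sources used here. Scaled counts and the authors' own comparison, with fold changes and p-values, are in the same table and were not used.

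Counts were compared with edgeR 4.0.16 in R 4.3.3, using filterByExpr with a minimum count of 10, TMM scaling and the quasi-likelihood test on all 12854 genes that passed. Benjamini-Hochberg adjusted p-values under 0.05 were called. DESeq2 1.42.0, other scalings, no filter, a robust fit, a replicate block and leaving out each library served as alternatives. For a single gene, 0.1 is the smallest exact permutation p-value that 3 against 3 libraries allow. Replicate numbers pair the libraries: same-numbered libraries carry the same code in the labels, and their deviations from the group means correlated at 0.22, 0.33 and 0.25. The main test compared the groups without this pairing, since the study names no block, and the replicate block is the fit that uses it. Within a group, chi-square values of 5.92 to 10.9 per gene showed that no library was a copy of another.

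Lengths and positions came from GENCODE 29 (GRCh38), promoters from RefSeq (GRCh38.p14). The members and lists were chosen with earlier results of these data known. Outside the members, MYCN, MYCL, MGA and MLXIPL were named, and from each list the 3 called genes (or fewer) with the lowest p-values and up to 2 called genes that went against the list's median.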

Additional observations from a re-analysis of the deposited data

How the results depend on the processing

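Across 13 alternative fits for each of 41 named genes, 0 of 533 log2 fold changes turned their sign, 19 lost the call and 4, all for MXI1, gained it. For MYC, MXD1, MXD3, MXD4 and TXNIP the call held in all 13. The number of members higher was 2 in every fit, and the number lower was between 4 and 6. It was 4 with upper-quartile scaling, where MLXIP had an adjusted p of 0.0598 in edgeR. Leaving out DMSO replicate 1 also gave 4, with MAX not called. Leaving out DMSO replicate 2 or 3 gave 4 as well, with MLXIP not called. The number was 6 with the replicate block, RLE or total counts, where MXI1 joined. The replicate block, which left 2 residual degrees of freedom, changed no other call among these 41 genes. Over all genes it called 3877 higher and 3708 lower, beside 3311 and 3178 in the main fit. The weight of the variance pooled over genes (prior degrees of freedom) was infinite in that block fit and 10.8 in the main fit. How far its added calls go with the pairing or with this pooling was not tested. With RLE size factors and with total counts MXI1 also passed, at -0.29 (adjusted p = 0.044) and -0.36 (adjusted p = 0.014). ARID4B and KLF10 missed it with total counts, at 0.20 (adjusted p = 0.0886) and 0.24 (adjusted p = 0.0529). Total counts moved the median of all genes by -0.085, and turned the balance of calls over all genes from 3311 higher and 3178 lower to 2763 and 3875. The difference in the MYC percentage of the MAX partners, WFA minus DMSO, was -39.7 points, -38.8 with the longest transcript as length, -26.3 without length correction, since MGA has the longest transcript and then weighs more, and between -40.9 and -38.5 with a library left out. Within the network, counts were lowest for MYCN (0), MLXIPL (18 to 42) and MXD3 (27 to 96), which limits the precision of their values.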

Other observations

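Genes for the proteins that work with MYC or control its stability were counted beside all tested genes, of which 25.8% were higher and 24.7% lower. Of 14 cofactors of MYC, 2 were higher (14.3%) and 4 lower (28.6%), with a median log2 fold change of -0.14, or 3 higher and 6 lower with the replicate block. That fit called more of all genes as well, 3877 higher and 3708 lower. RUVBL1 and RUVBL2 encode ATPases that work in a common complex, yet RUVBL1 fell from 111 ± 1.65 to 57.7 ± 2.46 CPM while RUVBL2 rose from 115 ± 9.91 to 167 ± 4.76 CPM (SD, n = 3 each). Their log2 fold changes in edgeR were -0.95 (standard error 0.082, adjusted p = 2.87e-07) and 0.54 (standard error 0.088, adjusted p = 0.000129). WDR5, which helps MYC to bind chromatin, fell with -0.80, ACTL6A, an actin-related subunit of chromatin remodelers, fell with -0.56, and ZBTB17, which encodes the MYC-binding factor MIZ1, rose with 0.56. Of 15 genes for turnover of MYC, 4 were higher (26.7%) and 3 lower (20.0%), with a median of -0.031, or 4 higher and 5 lower with the replicate block, and 3 and 5 with total counts. USP36, a nucleolar deubiquitinase that stabilizes MYC, fell with -1.03 (standard error 0.12, edgeR adjusted p = 4.59e-06), and SKP2, an F-box protein, fell with -0.88. PIM1, a kinase that cooperates with MYC, rose with 1.30 (standard error 0.16, edgeR adjusted p = 8.7e-06), and BTRC, another F-box protein, rose with 0.51.

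The corepressors that MXD proteins and MNT recruit gave 2 of 12 higher and 3 lower, beside the same 25.8% and 24.7% of all genes, and a median of -0.06. With total counts 1 was higher and 4 lower. SIN3A, the scaffold, fell from 146 ± 7.32 to 94.2 ± 9.77 CPM (SD over 3 libraries in each group), or -0.63 on the log2 scale (edgeR adjusted p = 4.95e-05). The deacetylase HDAC2 fell with -0.50. ARID4A and ARID4B, subunits of SIN3 complexes, rose with 0.84 (edgeR adjusted p = 2.38e-06) and 0.28 (edgeR adjusted p = 0.0174), and ARID4B lost its call without DMSO replicate 1 (0.21, edgeR adjusted p = 0.112) and without WFA replicate 3 (0.25, edgeR adjusted p = 0.0501).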
